A study of Mus musculus with 7 samples.

Results

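Replication-dependent histone genes supply the proteins that package newly copied DNA. They were taken here as every gene whose symbol begins with Hist1h to Hist4h followed by a class digit, which gave 70 of 50600 entries in a bulk RNA sequencing table and 58 of 15536 genes in a single-cell table. By symbol, the 70 genes comprised 6 for the linker histone H1, 20 for H2A, 19 for H2B, 12 for H3 and 13 for H4. Among them the GENCODE M21 annotation lists Hist1h2aj, Hist1h2al and Hist3h2bb-ps as pseudogenes. By the locus in the symbol, 56 belonged to Hist1 on chromosome 13, 10 to Hist2 on chromosome 3, 3 to Hist3 on chromosome 11 and 1 to Hist4 on chromosome 6. Hist1h2al, counted in Hist1 by its symbol, lies apart from the other Hist1 genes at chr13:51202727-51203065. The bulk table held 4 primary cultures of neural stem and progenitor cells (NSPCs) from the dentate gyrus (DG) and whole DG tissue of 2 animals, all of strain C57Bl6J. The NSPC cultures, 2 female (F1, F2) and 2 male (M1, M2), came from mice of 6 to 8 weeks, were at passages 6 to 15 and grew on coated plates with epidermal growth factor and basic fibroblast growth factor at 20 ng/ml each. The whole DG tissue (female F1, male M2) came from mice of 7 to 9 weeks and holds all cell types of that region. The single-cell library mixed 3 such cultures, 2 female and 1 male, of mice of 6 to 9 weeks, and its cells carry no record of their culture.

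These genes are transcribed mainly in S phase, when the DNA is copied, and their messenger RNAs fall away when replication stops. The transcripts usually carry no poly(A) tail. They end shortly after a small hairpin that the stem-loop binding protein, encoded by Slbp, recognises, and NPAT switches the loci on. Some of the genes also give polyadenylated transcripts, which are found in cells that have left the cycle. The adult DG keeps a small pool of dividing progenitors among a large majority of granule neurons that no longer divide. The labels describe the molecule sequenced in every library as polyA RNA.

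The hairpin is the feature that sets this family apart in sequence, and its letters are shown for members whose levels are described below and for Hist1h4j, an example of the rarest stem. A stem of 6 base pairs around the loop TTTC was found in an annotated transcript of 35 of the 70 members and of 302 of 55271 other genes (0.546%) in GENCODE M21 on GRCm38. Within the last 300 bases of a transcript it was found in 21 members and in 62 other genes (0.112%). In the sequences below the capitals mark the hairpin of 16 bases, and up to 5 bases are shown on each side. They lie at chr13:21833026-21833049 (minus strand) for Hist1h2ap, chr13:23570663-23570688 (minus strand) for Hist1h2ae, chr13:23739507-23739532 (plus strand) for Hist1h1c, chr13:23571838-23571863 (plus strand) for Hist1h2bg, chr11:58955167-58955192 (plus strand) for Hist3h2a, chr11:58949344-58949369 (plus strand) for Hist3h2ba, chr3:96247322-96247347 (plus strand) for Hist2h3c1, chr13:23581945-23581970 (plus strand) for Hist1h4d, chr13:23531453-23531478 (plus strand) for Hist1h4h and chr13:21735432-21735457 (plus strand) for Hist1h4j.
Hist1h2ap: aaaaaGGCTCTTTTCAGAGCCatc
Hist1h2ae: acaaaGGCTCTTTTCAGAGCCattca
Hist1h1c: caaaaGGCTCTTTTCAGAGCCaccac
Hist1h2bg: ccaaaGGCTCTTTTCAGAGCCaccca
Hist3h2a: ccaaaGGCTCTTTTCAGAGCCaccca
Hist3h2ba: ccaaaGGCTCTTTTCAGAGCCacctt
Hist2h3c1: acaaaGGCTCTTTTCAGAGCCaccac
Hist1h4d: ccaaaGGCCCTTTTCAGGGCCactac
Hist1h4h: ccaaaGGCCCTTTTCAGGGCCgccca
Hist1h4j: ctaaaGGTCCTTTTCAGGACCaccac

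The stem differed by histone class. In the 3 H1, 10 H2A, 8 H2B and 5 H3 genes that held a hairpin it began with GGCTCT, whereas the 9 H4 hairpins began with GGCCCT in 7 genes and with GGTCCT in 2. The annotated transcript ran on for over 100 bases past the hairpin in 17 members, among them Hist3h2a (1643 bases), Hist2h3c1 (1167 bases), Hist1h1c (840 bases) and Hist1h4d (770 bases). It ended within 100 bases of the hairpin in 18 members, among them Hist1h2ap, whose annotated transcript stops 3 bases past it. The other 35 members had no such hairpin in an annotated transcript. Only a perfect stem with the loop TTTC was searched for, so another form of the hairpin would not be seen.

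RefSeq promoters on GRCm38.p6, from 250 bases before to 50 bases after the start of transcription, matched 61 of the 70 members by a synonym (62 promoters). Both strands were searched for 3 motifs. CCAAT stood in 53 of the 62 promoters (85.5%), against 37.4% of the 32851 promoters in the table. It was in all 6 H1, 17 H2A, 17 H2B and 10 H3 promoters, and in 3 of the 12 of H4. TATAAA stood in 35 promoters (56.5%, against 13.6% of the table). TTTGCAT, part of the octamer known from H2B promoters, stood in 15 (24.2%, against 4.63%), of which 7 were H2A, 7 H2B and 1 H4. Neighbouring H2A and H2B genes on opposite strands can share promoter bases, and a match there is counted for both genes. The windows of Hist1h2ae (chr13:23571171-23571470) and Hist1h2bg (chr13:23571150-23571449) overlap, for example. The TTTATA and ATGCAAA in capitals for Hist1h2ae below are also the TATAAA and TTTGCAT counted for Hist1h2bg. A match is a description of the letters and not a bound site. Promoters are printed for 3 members that differed across the single-cell clusters or between cultures and tissue, with the matches on either strand in capitals: Hist1h1b (chr13:21780576-21780875, minus strand), Hist1h2ae (chr13:23571171-23571470, minus strand) and Hist3h2a (chr11:58954435-58954734, plus strand).
Hist1h1b: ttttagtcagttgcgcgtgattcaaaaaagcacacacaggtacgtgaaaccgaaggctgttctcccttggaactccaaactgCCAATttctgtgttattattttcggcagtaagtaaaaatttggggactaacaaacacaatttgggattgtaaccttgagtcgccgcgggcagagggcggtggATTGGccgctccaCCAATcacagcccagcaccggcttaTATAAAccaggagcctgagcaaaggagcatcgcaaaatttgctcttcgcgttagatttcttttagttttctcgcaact
Hist1h2ae: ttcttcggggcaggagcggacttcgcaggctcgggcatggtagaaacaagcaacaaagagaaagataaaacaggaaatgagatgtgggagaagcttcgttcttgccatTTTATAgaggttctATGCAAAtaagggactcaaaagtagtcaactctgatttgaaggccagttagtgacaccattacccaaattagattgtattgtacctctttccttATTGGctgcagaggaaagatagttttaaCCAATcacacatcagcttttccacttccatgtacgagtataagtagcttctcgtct
Hist3h2a: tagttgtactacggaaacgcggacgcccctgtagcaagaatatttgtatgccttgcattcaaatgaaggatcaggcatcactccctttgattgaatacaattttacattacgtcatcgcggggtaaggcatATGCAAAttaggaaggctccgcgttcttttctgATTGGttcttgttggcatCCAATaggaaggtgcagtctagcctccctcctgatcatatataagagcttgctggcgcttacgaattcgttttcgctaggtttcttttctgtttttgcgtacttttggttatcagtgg

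Deposited gene counts summed to 9917697 to 11747408 per culture library and to 16676618 and 17351636 per whole DG library. Culture libraries were made with the Clontech SMART-Seq HT kit and whole DG libraries with the NEBNext Ultra II Directional kit. Kit and group therefore cannot be told apart. Of 6 NSPC markers, 4 were higher and 2 (Hes5 and Sox2) lower in cultures than in whole DG, and their summed level was 5292 to 5752 CPM (counts scaled to 1000000 per library) in cultures and 741 to 778 CPM in whole DG. All 5 mature neuron markers were lower in cultures, with a summed level of 33.6 to 39.3 CPM in cultures and 8063 to 8553 CPM in whole DG. Astrocyte markers summed to 377 to 872 CPM in cultures and 1400 to 1516 CPM in whole DG, with 2 of 4 lower and 2 that did not pass. Oligodendrocyte precursor markers summed to 70.2 to 220 CPM in cultures and 89.3 to 94.3 CPM in whole DG, with Cspg4 higher and the 2 others lower. Every tested marker of GABA interneurons, oligodendrocytes, microglia and endothelium was lower in cultures, and their sums there did not pass 16 CPM in any list. Of 3 neuroblast markers 2 were lower and 1 did not pass. Slc32a1 (GABA interneurons), Sox10 (oligodendrocyte lineage), C1qa (microglia) and Cldn5 (endothelium) had 0 counts in every culture. Whether these other cell types had a part in the histone levels was not tested.

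Summed over the 70 genes, histone transcripts reached 1190, 1217, 631 and 1453 CPM in cultures F1, F2, M1 and M2, and 269.5 and 267.6 CPM in whole DG F1 and M2. Every culture stood above both tissue libraries, and M1 was the lowest culture by a wide margin. The mean was 1123 ± 348 CPM in cultures (SD, n = 4) and 269 ± 1.34 CPM in whole DG (SD, n = 2), a ratio of 4.18. Most of that difference lay in the 15 H2A genes of Hist1. Their sum was 910, 964, 387 and 1096 CPM in the cultures and 9.62 and 12.6 CPM in whole DG. The other 55 genes summed to 280, 253, 244 and 356 CPM in cultures and 260 and 255 CPM in whole DG, and the groups overlapped. In bulk samples, fewer cells of a type and less RNA per cell cannot be told apart.

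**Figure D1:**
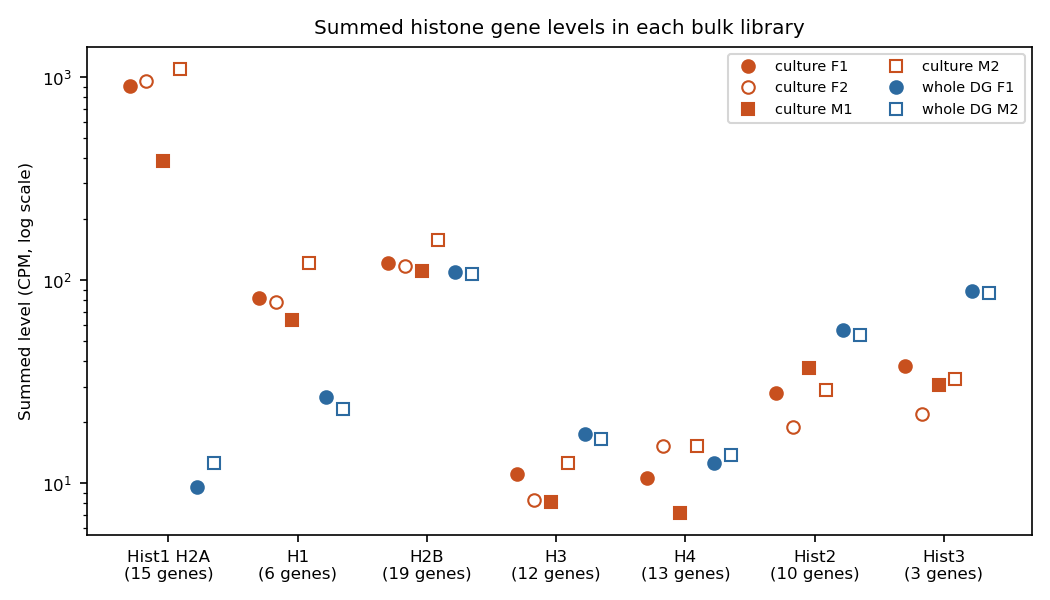
Summed level of each set of histone genes (CPM, log scale) in each bulk library, with cultures (orange) left of whole DG (blue) within a set. Hist2 and Hist3 are loci and include H2A, H2B, H3 and H4 genes counted in the class sets as well. The Hist1 H2A sums lie between 387 and 1096 CPM in cultures and at 9.62 and 12.6 CPM in whole DG, whereas Hist2 and Hist3 lie lower in every culture than in whole DG.

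Of the 70 genes, 38 had enough reads to be tested between cultures and whole DG with edgeR's quasi-likelihood F test, and 32 did not. With Benjamini-Hochberg adjustment over all 18088 genes tested and a threshold of 0.05, 19 of the 38 were higher in cultures, 9 were lower and 10 did not pass. Over all genes, 77.3% passed the same test, 35.6% higher and 41.7% lower. The 38 had a median log2 difference of 0.85, against -0.13 over all genes tested. In 30 of the 38 the 4 cultures did not overlap the 2 whole DG libraries (20 above, 10 below), as in 83.6% of all genes tested. Without the Hist1 H2A genes the median of the remaining 25 was -0.34, with 6 higher, 9 lower and 10 that did not pass. By locus, 19 of 29 tested Hist1 genes were higher and 3 lower. None of the 7 tested Hist2 genes or the 2 tested Hist3 genes was higher, while 4 Hist2 genes and both Hist3 genes were lower.

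**Figure D2:**
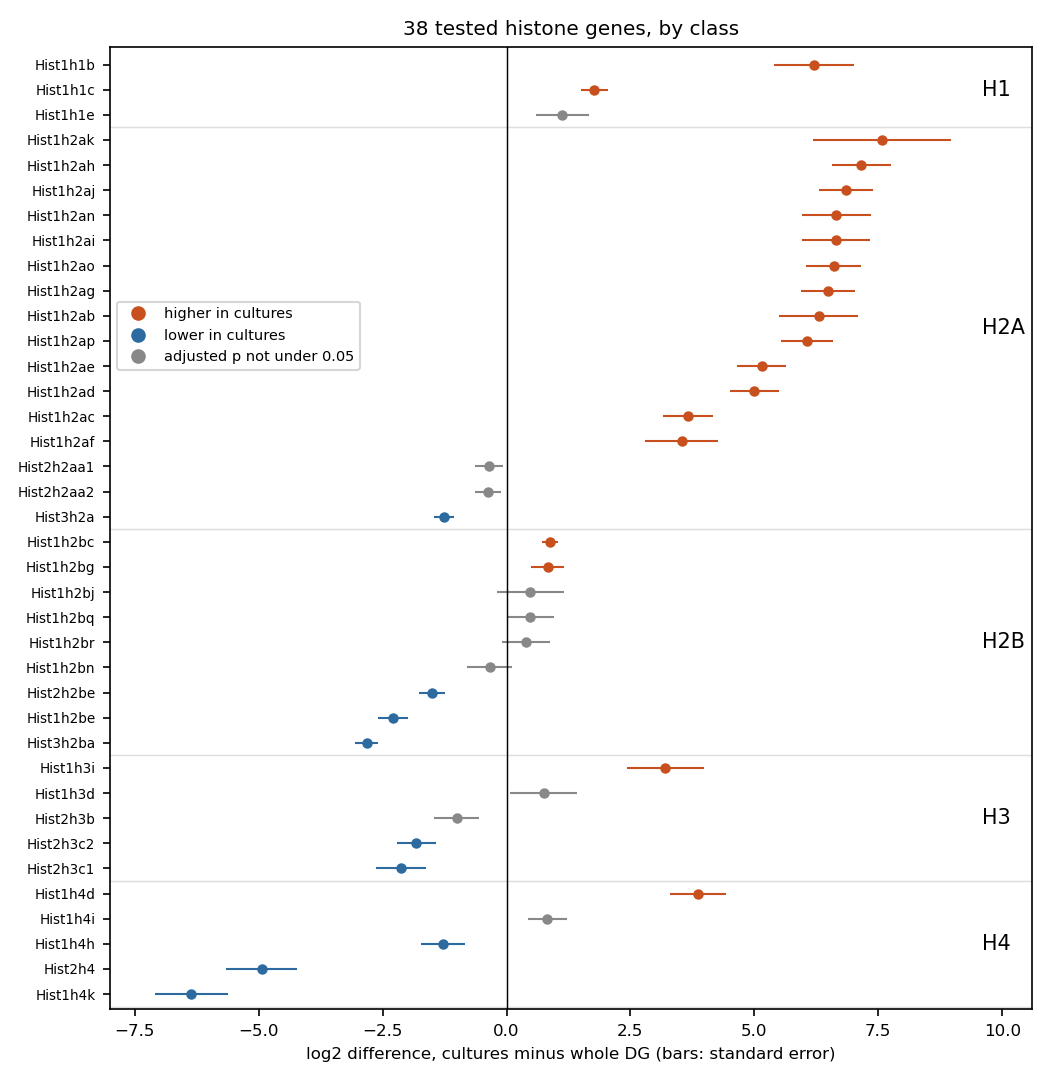
Log2 difference between cultures and whole DG for the 38 tested histone genes (points) with its standard error (bars), grouped by class and ordered by size. All 13 tested Hist1 H2A genes lie to the right, and Hist1h4k and Hist2h4 lie farthest to the left.

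H2A pairs with H2B at the outer faces of the nucleosome. All 13 tested H2A genes of Hist1 were higher in cultures, with log2 differences from 3.53 (Hist1h2af) to 7.57 (Hist1h2ak). The most abundant member, Hist1h2ap (chr13:21833026-21833507, minus strand on GRCm38), had 283, 305, 119 and 344 CPM in cultures F1, F2, M1 and M2, against 3.55 and 4.26 CPM in whole DG F1 and M2. The groups were far apart, with M1 the lowest culture, and the log2 difference was 6.07 ± 0.52 (SE, edgeR adjusted p = 1.4e-05). Hist1h2ao had 162, 173, 65.3 and 184 CPM in the cultures, against 1.42 and 1.58 CPM in whole DG (log2 difference 6.60 ± 0.55). Hist1h2ag had 153, 161, 67.9 and 193 CPM in the cultures, against 1.23 and 1.95 CPM in whole DG (log2 difference 6.49 ± 0.55). These genes shared one ordering of the libraries, with M2 the highest culture, M1 the lowest, and both tissue libraries far beneath. Hist1h2ah had 115, 123, 51.6 and 142 CPM in the cultures and 0.452 and 1.03 CPM in whole DG (log2 difference 7.15 ± 0.60). Hist1h2aj, which the annotation lists as an unprocessed pseudogene, had 85.0, 92.3, 39.1 and 104 CPM in the cultures and 0.581 and 0.791 CPM in whole DG (log2 difference 6.84 ± 0.55). M1 was the lowest culture again in both genes, and neither group reached the other.

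The less abundant Hist1 H2A genes had the same order of groups. Hist1h2an had 32.6, 32.9, 11.6 and 40.2 CPM in cultures F1, F2, M1 and M2 and 0.258 and 0.304 CPM in whole DG (log2 difference 6.65 ± 0.69). Hist1h2ae had 25.3, 24.3, 10.7 and 25.2 CPM in the cultures and 0.516 and 0.669 CPM in whole DG (log2 difference 5.15 ± 0.50). Hist1h2ac had 13.97, 12.4, 5.83 and 16.97 CPM in the cultures and 0.839 and 1.09 CPM in whole DG (log2 difference 3.65 ± 0.50). In all of them the culture libraries lay well above the tissue libraries. Hist1h2ai had 11.1, 12.4, 4.97 and 13.2 CPM in the cultures, while its whole DG libraries held 3 reads in all, a ratio of 111 (95% counting interval 37.9 to 542). Hist1h2ak had 11.3, 9.19, 1.05 and 9.66 CPM in the cultures, while whole DG held 1 read in all, a ratio of 254 (45.3 to 10066). Culture M1 stood apart from the other cultures most in Hist1h2ak. Per kb of annotated exon the cultures reached 545 CPM for Hist1h2ap, 305 for Hist1h2ao, 296 for Hist1h2ag, 266 for Hist1h2ah and 228 for Hist1h2aj, whereas whole DG reached 8.10, 3.13, 3.27, 1.83 and 1.95 CPM per kb for the same genes.

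Counts of single Hist1 H2A genes are uncertain because the copies are nearly alike. Of all 100-base stretches of the annotated transcript, 92.2% for Hist1h2ap, 92.7% for Hist1h2ao, 76.2% for Hist1h2ag, 87.9% for Hist1h2ah and 91.7% for Hist1h2aj also occur in another histone gene of the family. Over the family, 25 genes had more than 50% of such stretches in common with another member and 10 had none. The division of reads among copies was steady across cultures, where Hist1h2ap took 30.7% to 31.6% of the Hist1 H2A sum and Hist1h2ao 16.8% to 17.98%. In whole DG Hist1h2ap took 33.8% to 36.9% and Hist1h2ao 12.6% to 14.8%. Each of the 15 Hist1 H2A genes also overlaps a gene model on the other strand that is annotated as a miRNA. The models that overlap the members over 50 CPM held 24.5% to 98.3% as many CPM as the member itself in cultures. The model on Hist1h2ap, Gm44466, averaged 98.3 CPM in cultures and 1.06 CPM in whole DG. The sources used here do not say whether counting used strand or how reads were shared between copies, so reads of a gene and its partner cannot be told apart.

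**Figure D3:**
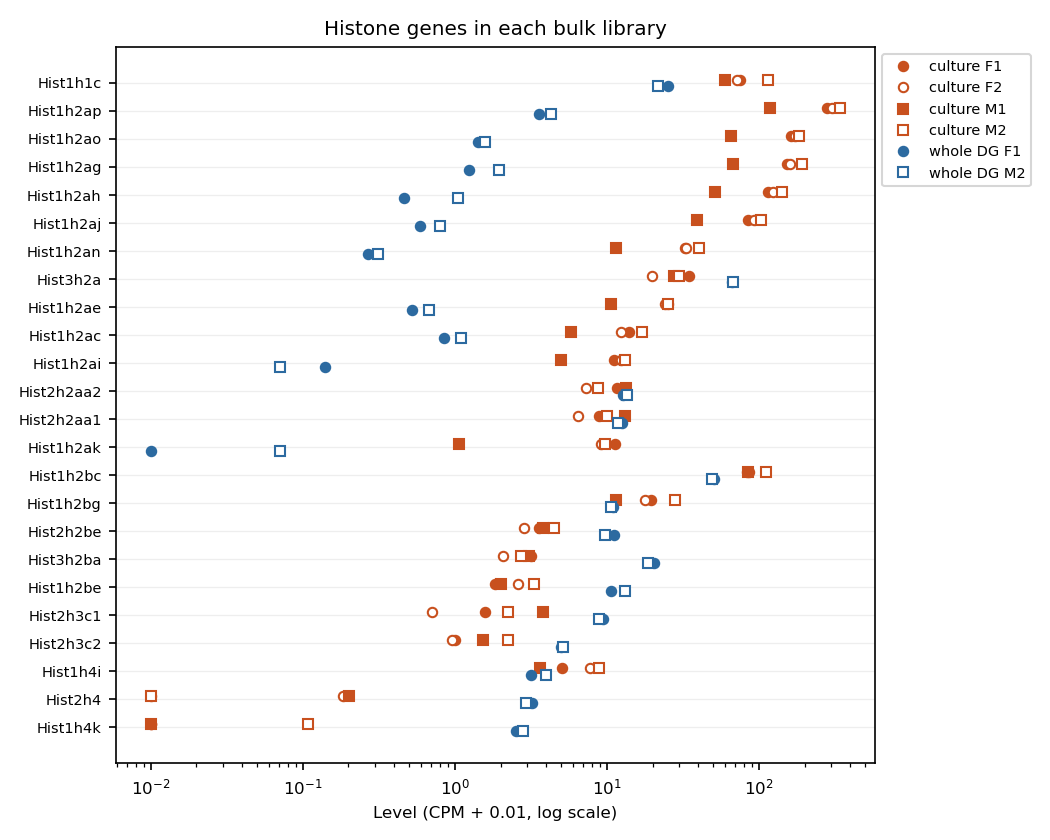
Level of 24 histone genes in each library (CPM + 0.01, log scale), with each culture in orange above each whole DG library in blue within a row. Hist1 H2A genes such as Hist1h2ap lie far to the right in all cultures, with culture M1 lowest, whereas Hist3h2ba, Hist1h2be, Hist2h3c1, Hist2h4 and Hist1h4k lie farther right in whole DG.

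H1 binds the linker DNA between nucleosomes. Of 3 tested H1 genes, 2 were higher in cultures and 1 did not pass. Hist1h1c (chr13:23738808-23740367, plus strand), the most abundant H1 gene in both groups, had 75.5, 71.4, 59.6 and 115 CPM in cultures F1, F2, M1 and M2 and 25.3 and 21.7 CPM in whole DG. The groups did not overlap, and the log2 difference was 1.77 ± 0.27 (SE, edgeR adjusted p = 0.000449). Hist1h1b, singled out here after its values were seen, had 3.14, 4.33, 1.91 and 2.63 CPM in the cultures, and its whole DG libraries held 1 read in all, a ratio of 97.2 (95% counting interval 17.2 to 3867). Hist1h1b shares none of its 100-base stretches with another member and overlaps no other gene. Hist1h1e averaged 2.27 ± 1.14 CPM in cultures and 1.04 ± 0.0879 CPM in whole DG and did not pass (adjusted p = 0.0852), although the groups did not overlap and it passed in 3 of 14 alternatives.

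The H2B genes were divided, with 2 of 9 tested higher in cultures, 3 lower and 4 that did not pass. Hist1h2bc (chr13:23684199-23692908, plus strand), the most abundant H2B gene in both groups, had 86.8, 84.2, 85.3 and 111 CPM in cultures F1, F2, M1 and M2 and 50.7 and 49.4 CPM in whole DG. All 4 cultures stood above the tissue, M1 did not stand apart, and the log2 difference was 0.88 ± 0.16 (SE, edgeR adjusted p = 0.00109). Per kb of exon Hist1h2bc reached 79.5 CPM in cultures and 43.3 CPM in whole DG, where it was the highest of the members printed here. Hist1h2bg had 19.4, 17.8, 11.5 and 28.1 CPM in the cultures and 11.04 and 10.58 CPM in whole DG (log2 difference 0.83 ± 0.33, adjusted p = 0.0487). Its lowest culture was barely above the tissue, and the call was lost in 9 of 15 alternative settings.

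The H2B genes that fell in cultures lie in 3 different loci. Hist1h2be had 1.82, 2.60, 2.01 and 3.32 CPM in cultures F1, F2, M1 and M2 and 10.59 and 13.3 CPM in whole DG (log2 difference -2.29 ± 0.30, edgeR adjusted p = 0.00016). Its annotated span also overlaps part of Hist1h1e on the same strand, so reads there are uncertain. Hist2h2be had 3.55, 2.86, 3.82 and 4.49 CPM in the cultures and 11.1 and 9.79 CPM in whole DG (log2 difference -1.50 ± 0.26). Hist3h2ba (chr11:58948920-58949533, plus strand) had 3.14, 2.08, 3.06 and 2.73 CPM in the cultures and 20.3 and 18.7 CPM in whole DG (log2 difference -2.82 ± 0.23, adjusted p = 1.1e-05). In each of them both tissue libraries lay above every culture, and culture M1 was within the range of the other cultures.

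None of the 3 tested H2A genes outside Hist1 was higher in cultures. Hist3h2a, the H2A gene with the highest level per kb in whole DG (12.999 CPM per kb in cultures and 31.3 in whole DG), had 34.5, 19.8, 27.5 and 29.8 CPM in cultures F1, F2, M1 and M2 and 67.1 and 67.4 CPM in whole DG. The groups did not overlap, and the log2 difference was -1.27 ± 0.20 (SE, edgeR adjusted p = 0.000576). Hist3h2a shares no 100-base stretch with another member, but Trim17, which averaged 22.2 CPM in cultures and 52.6 CPM in whole DG, overlaps it on the same strand. Hist2h2aa1 had 8.93, 6.502, 13.1 and 10.0 CPM in the cultures and 12.7 and 11.9 CPM in whole DG, and Hist2h2aa2 had 11.7, 7.28, 13.3 and 8.68 CPM in the cultures and 12.8 and 13.6 CPM in whole DG. The groups overlapped in both genes and neither passed (adjusted p = 0.28 and 0.235). Of the 100-base stretches of Hist2h2aa1 and Hist2h2aa2, 88.1% and 100% also occur in another member, so their single counts are uncertain. Gm20633 and Gm20634, which overlap Hist2h2aa1, held 115% and 126% as many CPM as it did in cultures. Gm20632, which overlaps Hist2h2aa2, held 130% as many.

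H3 and H4 form the inner core of the nucleosome, and their genes were low in both groups. Of 5 tested H3 genes, 1 was higher in cultures, 2 were lower and 2 did not pass. Hist2h3c1 had 1.57, 0.694, 3.82 and 2.24 CPM in cultures F1, F2, M1 and M2 and 9.36 and 8.82 CPM in whole DG (log2 difference -2.13 ± 0.51, edgeR adjusted p = 0.00475). Hist2h3c2 had 0.992, 0.954, 1.53 and 2.24 CPM in the cultures and 4.97 and 5.11 CPM in whole DG (log2 difference -1.82 ± 0.40). Both lay lower in every culture than in the tissue. Of the 100-base stretches of Hist2h3c1 and Hist2h3c2, 32.9% and 61.6% also occur in another member, so their single counts are uncertain. A further transcript on the same strand, Gm20634, overlaps Hist2h3c1 and averaged 12.2 CPM in cultures and 25.6 CPM in whole DG. The H3 gene that was higher, Hist1h3i, named after its values were seen, averaged 1.51 ± 0.674 CPM in cultures and 0.154 ± 0.126 CPM in whole DG (log2 difference 3.20 ± 0.78), and its call was lost without whole DG F1.

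Of 5 tested H4 genes, 1 was higher in cultures, 3 were lower and 1 did not pass. Hist1h4k had 1 read over all cultures, in M2, and 2.52 and 2.80 CPM in whole DG, a ratio of 0.00847 (95% counting interval 0.000212 to 0.0485). Hist2h4 had 0, 0.173, 0.191 and 0 CPM in cultures F1, F2, M1 and M2 and 3.23 and 2.92 CPM in whole DG (log2 difference -4.94 ± 0.71, edgeR adjusted p = 0.00029). These were the members with the largest falls among those tested. Hist1h4i, the H4 gene with the most reads in both groups, had 5.04, 7.72, 3.63 and 8.88 CPM in the cultures and 3.16 and 3.95 CPM in whole DG. Its groups overlapped and it did not pass (log2 difference 0.82 ± 0.40, adjusted p = 0.0917), though it did in 3 of 15 alternatives. Per kb of exon Hist1h4i reached 8.69 CPM in cultures and 4.89 CPM in whole DG, whereas Hist1h4k reached 0.0782 CPM in cultures and 8.52 CPM in whole DG. Hist1h4d, named after its values were seen, was the H4 gene that rose, with a mean of 3.78 ± 1.31 CPM in cultures and 0.249 ± 0.0781 CPM in whole DG (log2 difference 3.87 ± 0.57). Hist1h4h was lower in cultures (log2 difference -1.28 ± 0.44, adjusted p = 0.0261), a call lost in 8 of 14 alternatives.

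The 32 genes left out of the test for low counts had at most 56 reads over all libraries, and none passed 1.65 CPM in any library. Hist1h2aa had 0 reads in every library. On average 32 members reached 1 CPM in cultures and 20 did so in whole DG. The calls were set beside the annotated hairpin as a description. Of the 9 tested genes whose transcript ends within 100 bases of it, 5 were higher and 1 lower in cultures. Of the 12 whose transcript runs on for longer, 5 were higher and 5 lower. Of the 17 without that exact form of hairpin in an annotated transcript, 9 were higher and 3 lower. Over all genes tested, 35.6% were higher and 41.7% lower. Some of the 17 have short annotated transcripts, such as Hist1h2an (393 bases) and Hist1h4k (312 bases). Others have longer ones, such as Hist2h2be (2620 bases) and Hist1h4i (727 bases). A hairpin past the annotated end, or with another loop or an imperfect stem, would not be seen, so these groups do not separate genes with and without a hairpin.

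Culture M1 held 49.0% of the summed histone level of the other cultures on average. Hist1 H2A stood at 39.1%, H4 at 52.4%, H1 at 67.8%, H3 at 76.2% and H2B at 83.6%, and by locus Hist3 stood at 99.7% and Hist2 at 147%. M1 was the lowest culture in 21 of the 38 tested members and in 12 of the 13 tested Hist1 H2A genes. The share of all tested genes with M1 lowest was not counted, and the Hist1 H2A copies are nearly alike. These counts therefore describe the members only. In the same library 23 S phase genes summed to 3265 CPM (75.9% of the other cultures' mean) and 16 genes of G2 and mitosis to 1349 CPM (49.9%). The part of these levels in the low histone sum was not tested. Between the 2 female and the 2 male cultures, none of 32 tested members passed with edgeR or with DESeq2, none had an unadjusted p under 0.05, and the lowest adjusted p was 0.8. Over all 15140 genes tested between the sexes 0.0264% passed.

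The genes that make, process and carry histones were counted as lists. For comparison with the lists here and in the next paragraph, 35.6% of all genes tested were higher in cultures and 41.7% lower. Of 16 genes for transcription and 3′ processing of histone transcripts, 9 were higher in cultures, 3 lower and 4 did not pass. Slbp, which binds the hairpin, averaged 137 ± 6.59 CPM in cultures and 19.9 ± 2.39 CPM in whole DG (log2 difference 2.78 ± 0.15), and Npat averaged 44.1 ± 4.32 CPM in cultures and 27.8 ± 0.729 CPM in whole DG (0.66 ± 0.15). The 3 that fell, named after their values were seen, were Lsm11 (log2 difference -1.31), Sympk (-2.02) and Upf1 (-4.12). Lsm11 belongs to the U7 particle that directs the cut after the hairpin, Sympk scaffolds the cleavage complex, and Upf1 takes part in the decay of histone transcripts. All 11 chaperones coupled to replication were higher in cultures, among them Nasp (110 ± 17.5 CPM in cultures and 24.6 ± 3.52 CPM in whole DG), Hat1 (121 ± 16.1 and 16.2 ± 3.21 CPM) and Chaf1a (61.9 ± 10.604 and 7.61 ± 1.47 CPM). Of 5 chaperones that act outside replication, Daxx was higher, Hira, Ubn1 and Atrx were lower, and Cabin1 did not pass (log2 difference -0.03 ± 0.13).

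Of 11 genes for histone variants outside the replication-dependent families, 10 were higher in cultures and 1 was lower. H2afz averaged 742 ± 136 CPM in cultures and 115 ± 2.41 CPM in whole DG, H3f3b 979 ± 87.7 CPM in cultures and 213 ± 1.39 CPM in whole DG, and the centromeric Cenpa 92.0 ± 35.7 CPM in cultures and 3.62 ± 0.728 CPM in whole DG. The variant that fell, H1fx, named after its values were seen, averaged 0.251 ± 0.217 CPM in cultures and 50.4 ± 4.04 CPM in whole DG (log2 difference -7.61 ± 0.45). Of 23 S phase genes 22 were higher and 1, Gins2, did not pass. All 16 genes of G2 and mitosis were higher. The S phase genes summed to 4313, 4513, 3265 and 4077 CPM in cultures F1, F2, M1 and M2 and to 323 and 342 CPM in whole DG. The sums for G2 and mitosis were 2500, 3065, 1349 and 2550 CPM in the cultures and 36.1 and 40.7 CPM in whole DG.

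The single-cell library gave levels of the 58 histone genes in 14912 cells of the mixed cultures, which the authors had placed in clusters numbered 0 to 5. The cells held 2001 to 8531 unique molecular identifiers (UMIs, each a captured RNA molecule). With 1 library there is no test, and since the clusters were made from the same values the levels are a description. Histone genes held 38062 UMIs, 0.061% of all UMIs. Their summed level was 3.92, 4.78, 11.9, 3.92, 4.75 and 2.91 UMIs per 10000 in clusters 0 to 5. The exact Poisson interval, which covers counting error only, was 11.8 to 12.1 in cluster 2. Cluster 2 held 21.9% of the cells and 48.6% of the histone UMIs. The median cell had 5 histone UMIs in cluster 2, 2 in cluster 4 and 1 in the others, and 2.24% of the cells of cluster 2 had none, against 16.3% to 33.7% elsewhere. Median depth was 3749, 3431, 4731, 4127, 5270.5 and 4086 UMIs per cell in clusters 0 to 5. With every cell thinned to 2000 UMIs, cluster 2 stood at 12.2 per 10000 and cluster 0 at 4.12.

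H1 genes summed to 0.708, 1.08, 4.04, 0.966, 1.34 and 0.615 UMIs per 10000 in clusters 0 to 5, and H2A genes to 0.534, 0.613, 4.38, 0.841, 0.987 and 0.617. H3 genes summed to 0.0774, 0.122, 0.559, 0.147, 0.151 and 0.0722, and H4 genes to 0.425, 0.673, 1.26, 0.513, 0.72 and 0.23. All of these were highest in cluster 2. H2B genes summed to 2.18, 2.29, 1.70, 1.45, 1.56 and 1.37, highest in clusters 0 and 1, but Hist1h2bc alone held 9413 of their 11567 UMIs. The 15 other H2B genes summed to 0.235, 0.312, 0.574, 0.255, 0.33 and 0.203, highest in cluster 2 like the other classes. Of the 27 members with at least 100 UMIs, 23 were highest in cluster 2, for 22 of them with an interval above that of the next highest cluster. In cluster 2, 17 were at least 5 times higher than in the other clusters pooled.

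Hist1h2ap had 0.0695, 0.125, 2.13, 0.323, 0.257 and 0.0963 UMIs per 10000 in clusters 0 to 5, and cluster 2 held 81.5% of its UMIs. Cells with at least 1 UMI of Hist1h2ap made up 2.60%, 4.19%, 61.9%, 11.3%, 10.3% and 3.94% of these clusters, and 1.45%, 2.31%, 34.7%, 5.50%, 5.11% and 2.11% after thinning. Cluster 2 stood far above the others on either count, and clusters 3 and 4 above 0, 1 and 5. Hist1h1b, whose promoter is printed above, had 0.0463, 0.0785, 1.64, 0.241, 0.198 and 0.0547 UMIs per 10000 in clusters 0 to 5, a ratio of 14.5 between cluster 2 and the rest pooled. Ratios of the same kind were 14.6 for Hist2h2bb, 13.7 for Hist2h2ac, 9.599 for Hist1h2ae, 9.26 for Hist1h1e and 8.02 for Hist1h4d. The part of RNA free in the droplets in the low shares was not tested.

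Other members were spread over the clusters. Hist1h2bc, with the most UMIs of all members (9413), had 1.94, 1.98, 1.12, 1.20, 1.23 and 1.17 UMIs per 10000 in clusters 0 to 5. It was highest in clusters 0 and 1, whose order turned with thinning. Hist1h1c had 0.568, 0.863, 1.16, 0.517, 0.959 and 0.466, highest in cluster 2 by a ratio of 1.69 to the rest pooled. Hist1h4i had a ratio of 1.60, Hist3h2a of 0.934, Hist3h2ba of 0.859 and Hist2h3c2 of 0.44. Of these, Hist3h2a, Hist3h2ba and Hist2h3c2 fell in cultures against whole DG, Hist1h2bc and Hist1h1c rose, and Hist1h4i did not pass. Other members that fell were higher in cluster 2, such as Hist1h4h (ratio 3.73) and Hist1h2be (2.31). The 31 members with fewer than 100 UMIs held 1393 UMIs together, 56.6% of them in cluster 2, and 25 of the 31 were highest there.

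**Figure D4:**
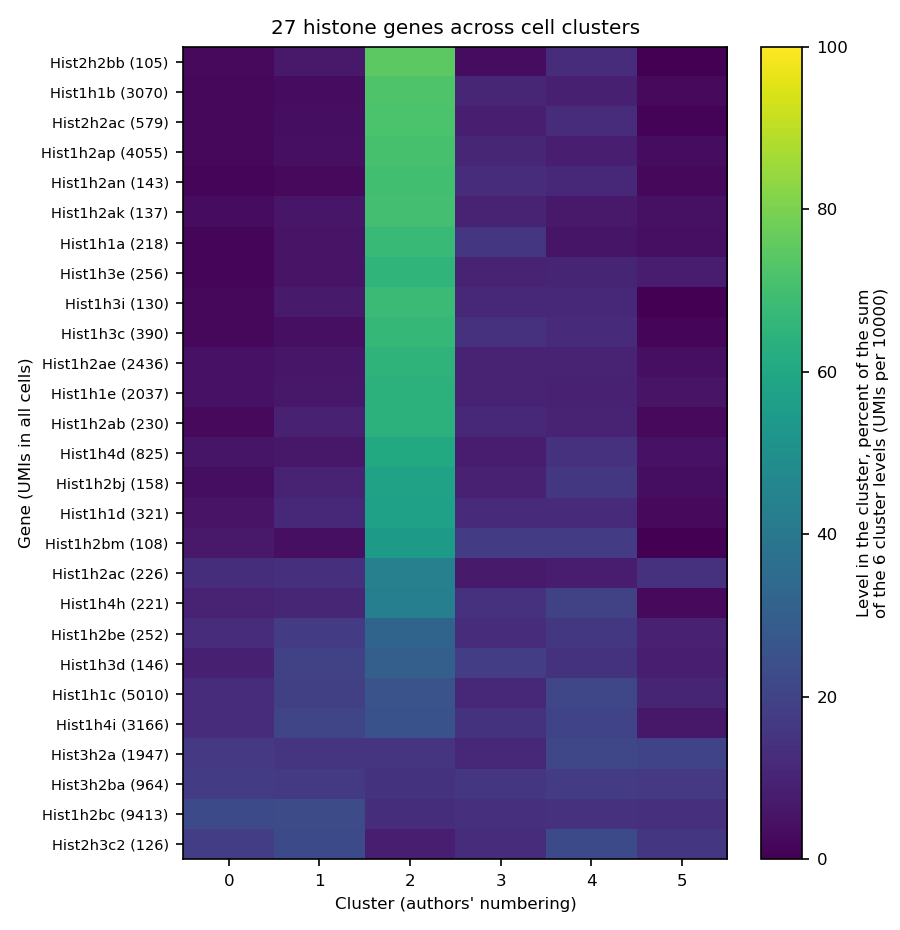
Level of 27 histone genes in clusters 0 to 5 (UMIs per 10000, shown as a percentage of the sum of the 6 cluster levels), with each gene's total UMIs beside its name. Most genes are concentrated in cluster 2, and Hist1h2bc, Hist3h2a, Hist3h2ba and Hist2h3c2 at the foot are spread over all clusters.

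Markers of the cycle were set beside the clusters. S phase genes summed to 5.02, 10.3, 28.3, 20.5, 14.1 and 3.94 UMIs per 10000 in clusters 0 to 5, and genes of G2 and mitosis to 3.16, 23.4, 28.6, 6.31, 66.8 and 2.39. Slbp had 0.541, 0.545, 1.65, 1.61, 0.551 and 0.481. Cluster 3 thus stood close to cluster 2 in Slbp and above the remaining clusters in S phase genes. Its summed histone level was that of cluster 0 within the counting intervals, but the classes differed. H2B genes, most of whose UMIs came from Hist1h2bc, stood at 1.45 in cluster 3 and 2.18 in cluster 0. The other classes stood higher in cluster 3: H1 at 0.966 against 0.708, H2A 0.841 against 0.534, H3 0.147 against 0.0774, H4 0.513 against 0.425. Cells grouped by their UMIs from S phase genes (0, 1 to 2, 3 to 5, 6 to 9, 10 or more) had 4.33, 4.64, 6.70, 9.53 and 11.4 histone UMIs per 10000 after thinning. Grouped in the same way by genes of G2 and mitosis, they had 3.81, 4.79, 7.99, 8.85 and 6.82. Both groupings pool all clusters. Within clusters 0 to 5, Spearman's rho across cells between histone and S phase UMIs was -0.045, -0.043, -0.0033, 0.075, 0.021 and -0.039. Over all cells it was 0.231. For genes of G2 and mitosis rho was 0.023, -0.033, 0.149, 0.124, -0.033 and -0.0015 within these clusters, and 0.217 over all cells.

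Bulk and single-cell levels of the cultures were compared over the 58 genes in both tables, with Spearman's rho of 0.455 as a description across genes, which share libraries and sequence. Hist1h1c had 80.4 CPM in bulk cultures and 80.3 UMIs per 1000000 in single cells, and Hist1h2bc 91.9 CPM and 151 UMIs per 1000000. Hist1h2ao, at 146 CPM in bulk, had 6 UMIs in all cells (0.0961 per 1000000), and Hist1h2ag, at 144 CPM, had 46 (0.737 per 1000000). In the other direction, Hist1h1b had 3.00 CPM in bulk and 49.2 UMIs per 1000000, and Hist1h4i 6.32 CPM and 50.7 UMIs per 1000000. The tables differ in kit, in the end of the transcript that is read and in the cultures used, and 12 members of the bulk table, among them Hist1h2ah and Hist1h2aj, are not in the single-cell table used here.

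**Figure D5:**
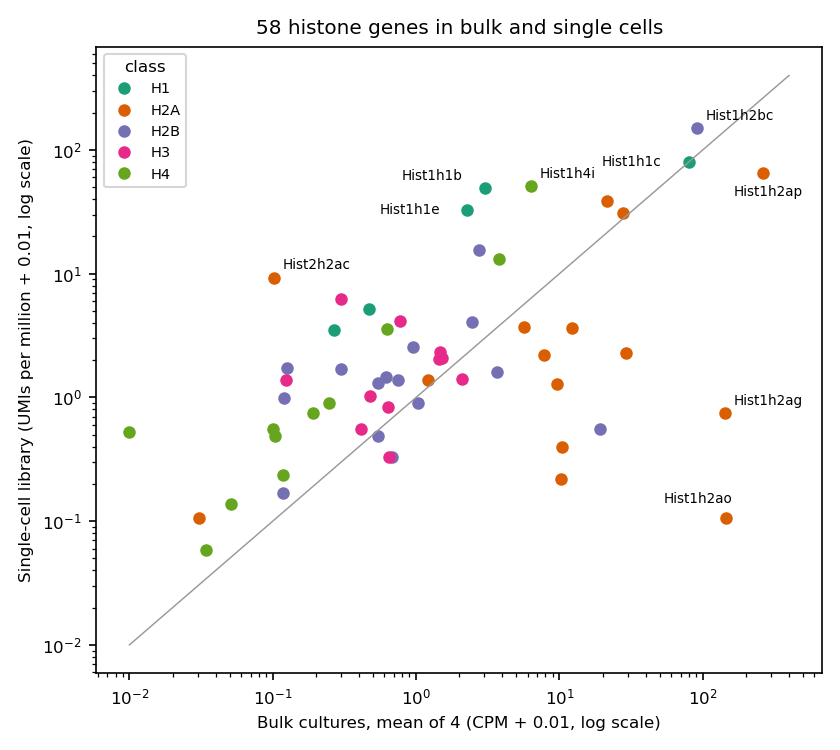
Mean bulk culture level (horizontal axis, CPM + 0.01) and single-cell level (vertical axis, UMIs per 1000000 + 0.01) of 58 histone genes, coloured by class, on log axes with a line of equal values. Hist1h2ao and Hist1h2ag lie far below the line, and Hist1h1b, Hist1h1e and Hist2h2ac far above it.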

How the data were processed

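The 4 culture and 2 whole DG libraries were sequenced as RNA, and the authors deposited 1 table of raw read counts per gene. HISAT2 2.0.6, featureCounts, Subread and CASAVA 1.8.2 appear in the submitters' processing notes, as does build GRCh38, although the gene symbols are mouse. Strand and multimapping options could not be learned from the labels. The single-cell values are natural log normalized, as deposited by the authors with cluster numbers, and the notes name Cell Ranger 3.1.0 and Seurat 3.1.0. All values came back to whole UMIs within 0.01, in 14912 distinct barcodes, and no doublet caller was run.

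Counts were scaled by TMM, filtered by filterByExpr and tested with edgeR 4.0.16 (quasi-likelihood F test, group as the only term, Benjamini-Hochberg threshold 0.05) in R 4.3.3. Standard errors were derived from the F statistic. CPM use TMM library sizes. DESeq2 1.42.0, other scalings, filters, a test against a fold of 2, and leaving out each library were alternatives. The code was tested on simulated data. The labels do not say that cultures of one sex came from separate animals, so p-values measure the spread between these libraries. Intervals are 95% and cover counting error only.

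Members and lists were chosen with earlier results of these data known. Values per library are given for the 12 most abundant members of each group, the most abundant of each class, and the 6 largest rises and falls among calls. Single-cell values are given for members with at least 100 UMIs. Sequences come from GENCODE M21 transcripts (GRCm38) and RefSeq promoters (GRCm38.p6).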

Additional observations from a re-analysis of the deposited data

Results flagged for a closer look

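Of 53 sets of culture values looked at, 3 had a library far from the others, and chance gives about 1 in 20. Hist1h2ae had 10.7 CPM in culture M1, against 24.3 to 25.3 CPM in the other cultures, a gap of 0.93 of the whole range. Hist1h2bc had 111 CPM in culture M2, against 84.2 to 86.8 CPM in the other cultures, a gap of 0.905 of the range. Hist1h4k had 0.0976 CPM in culture M2, which is 1 read, and 0 in the other cultures, a gap of 1 times the range.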

How the results depend on the processing

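No call was reversed under any alternative run, though the sign of Hist1h2bj, Hist1h2br, Cabin1 and Srrt, none of which passed, was not the same in all of them. Over the alternatives, 15 to 24 histone genes were higher and 6 to 10 lower in cultures, against 19 and 9; leaving out 1 library at a time gave 17 to 21 higher and 8 to 10 lower. All 13 tested Hist1 H2A genes were higher in each of them except under the stricter count filter, where 12 were. The median of all genes moved from -0.13 to -0.22 with DESeq2 size factors, 0.05 with upper quartile factors and -0.34 with DESeq2.

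Asking for a fold above 2 left 3671 genes higher of 6440, and 4 genes of histone transcription and processing (of 9), 0 chaperones outside replication (of 1) and 6 variants (of 10). The summed level in whole DG was 251.96 CPM with library totals, 276.13 CPM with DESeq2 size factors and 197.43 CPM without the most abundant member of each group, against 269 CPM. Thinning gave 4.121 per 10000 UMIs in cluster 0 and 12.156 in cluster 2, and the mean over cells gave 4.0234 in cluster 0, against 3.92 and 11.9. The cause of these shifts was not tested.

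Whether the library names shared by both groups (F1 and M2) pair the samples was not settled. The correlation across genes of the deviations of libraries of the same name was 0.0669. It cannot decide the question, because cultures and tissue differ in material and kit. In a fit of those libraries alone, the replicate block gave 21 members higher and 8 lower of 41 tested, against 24 higher and 9 lower without it. Of the 29 calls with the block, 27 were also calls over all 6 libraries. The 2 whole DG libraries and the coinciding kit limit every comparison of cultures with tissue, and levels under about 1 CPM rest on few reads.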
